A study of Homo sapiens with 52 samples.

Results

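The 10 uM and the 5 uM dose of iMDK were compared in Huh6, an established hepatoblastoma line. The members are the 3 libraries of Huh6 cells treated with iMDK at 10 uM and the 3 treated at 5 uM, chosen by their labels, 6 of the 52 libraries of the series. iMDK is named in the labels as an inhibitor of midkine (MDK). The cells of both groups had the same medium and the same 48 h of treatment, and they differ in the labels only by dose. The 3 Huh6 libraries with vehicle, at 48 h and without inhibitor, give the starting level. The main tests within Huh6 come from a fit of all 18 Huh6 libraries, which include those treated with another compound (named under processing). Those libraries are in neither dose group, but they enter the estimate of spread and the filter on low counts. The vehicle is not named in the labels used here, and whether the 3 libraries of a dose came from separate cultures is not stated, so that p-values measure the spread between libraries, which may be technical. HepG2, the other hepatoblastoma line of the series, received the same doses for the same time (6 libraries) and is used for comparison. The study asked how MDK and Wnt signalling shape the immune setting of hepatoblastoma, and the dose step asks what the higher of its iMDK doses adds to the lower one.

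Midkine is a secreted, heparin-binding growth factor that is abundant in the embryo, low in most adult tissues and raised in many tumours. It acts through cell surface partners such as syndecans, LRP1, ALK and integrins, which feed into the MAPK and PI3K pathways. Hepatoblastoma is a liver tumour of early childhood whose cells resemble fetal liver, make oncofetal proteins such as alpha-fetoprotein and usually carry an activated beta-catenin. Cells under chemical stress commonly use heat shock factors to raise cytosolic chaperones, NRF2 to raise thiol and detoxification enzymes, and ATF4 to adjust amino acid supply.

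Total counts ran from 18172462 to 19912509 in the 9 Huh6 libraries with vehicle or iMDK. In these, 3 counts in a library correspond to 0.148 to 0.163 CPM (counts scaled to a common library size with TMM factors). Values of single libraries are given in the order of their replicate numbers. The libraries carried the markers of the line: KRT8, KRT18, GPC3, EPCAM, APOA1, HNF4A and MDK were above 200 CPM in each of the 6 libraries, whereas DLK1 had 4 counts in the 6 libraries together. Of the genes in the lists used here, 65 have 0 counts in all 31 tumour line libraries (for example ASNS, DUSP1, JUNB, IFIT1 and HSPE1). The reason is not known, and they are left out of the list counts.

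Raising the dose from 5 to 10 uM changed the level of 3744 of 15029 tested genes (24.9%), mostly by small amounts. At the higher dose 1906 genes were higher (12.7%) and 1838 lower (12.2%) at an adjusted p below 0.05. At least 2-fold differences were fewer, with 63 genes higher (0.419%) and 85 lower (0.566%). Among the named groups, most immediate early genes, cytosolic chaperones and NRF2 targets rose, and most secreted plasma proteins and mitosis genes fell. The median of all tested genes was -0.0034 on the log2 scale. For 37.5% of all tested genes the 5 uM and 10 uM libraries did not overlap.

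The 12 largest increases were taken among genes that passed, with a mean log2 CPM of at least 2, no clone name and doses that do not overlap. Of these the highest value was that of NAV3, a neuron navigator protein of the cytoskeleton. It stood at 0.25, 0.561 and 0.453 CPM in the vehicle libraries, 5.38, 6.26 and 6.30 at 5 uM and 22.4, 24.4 and 24 at 10 uM, a log2 difference between the doses of 1.98 ± 0.11 (adjusted p = 5.93e-18). EGR1, a zinc finger transcription factor induced within minutes by growth factors and stress, was at 2.85, 3.01 and 2.72 CPM with vehicle. Its level was 14.3, 14.3 and 13.3 CPM at 5 uM and 46.5, 46.3 and 50.1 at 10 uM, which is 1.77 ± 0.071 on the log2 scale (3.41-fold, adjusted p = 2.79e-23). Each dose stands above the one before for both genes, where separation of 5 and 10 uM was required for naming them. EGR1 (ENSG00000120738.8) lies on chromosome 5, 138465490 to 138469315 of GRCh38, on the plus strand. NPPB, the natriuretic peptide gene, went from 10.1, 11.2 and 9.80 to 29.7, 29.7 and 30.4 CPM (1.53 ± 0.081, adjusted p = 5.72e-19). The NF-kappaB subunit RELB (1.38), the small MAF protein MAFF (1.40), the cytokine signalling inhibitor SOCS2 (1.36), the endothelial junction protein JCAD (1.37), the adaptor GULP1 (1.30), SAMD5 (1.44) and the MAPK inhibitor SPRY4 (1.29) rose as well. SOCS2-AS1 (1.19) is an antisense transcript of SOCS2, and because the strand setting of the counting is not given, reads from the stretch where both genes overlap cannot be told apart.

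Among genes that met the same filters, the lowest value was that of SLC10A1, the bile acid uptake carrier of hepatocytes. Its level was 26.6, 25.4 and 29.2 CPM with vehicle, 13.8, 14.4 and 11.7 at 5 uM and 5.72, 4.01 and 5.49 at 10 uM, a dose difference of -1.39 ± 0.11 (adjusted p = 2.1e-13). In these bulk samples, fewer cells with a transcript and less of it per cell cannot be told apart. HSD3B1, a steroid dehydrogenase, did not pass the test for the first step (-0.043, adjusted p = 0.84) and fell in the second, with 7.95, 5.66 and 7.61 CPM in vehicle, 8.14, 6.26 and 6.21 at 5 uM and 2.61, 2.73 and 3.53 at 10 uM (-1.22 ± 0.15, adjusted p = 1.86e-08). The other 11 of the 12 fell in the first step too (18.3% of all genes did), which shares the 5 uM libraries with the second. The kinase AATK was at 53.3, 25 and 11 CPM on average (-1.18), the glutamate transporter SLC1A2 at 49.3, 18.7 and 8.63 (-1.12), and the Wnt ligand WNT8A at 90.7, 27.5 and 14.3 (-0.94). WFIKKN1 (-1.13), NCCRP1 (-1.13), HSPA12B (-1.11), RBBP8NL (-1.10), the glucose transporter family member SLC5A9 (-1.08), PHGR1 (-1.03) and the Wnt coreceptor ADGRA2 (-0.94) complete the 12.

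**Figure D1:**
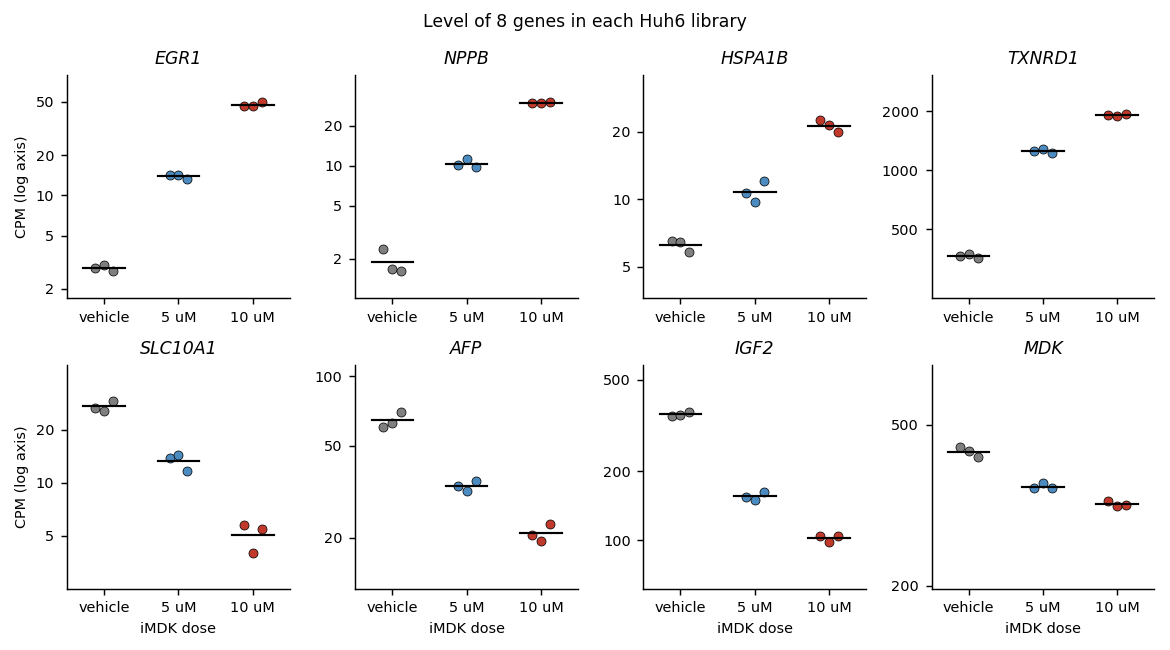
Level of 8 genes in each Huh6 library, in CPM on a log axis, with vehicle, 5 uM and 10 uM iMDK. Points are single libraries and bars are means of 3. EGR1, NPPB, HSPA1B and TXNRD1 step up with each dose and SLC10A1, AFP, IGF2 and MDK step down. No 10 uM library overlaps a 5 uM library in any of the 8, which holds for 37.5% of all tested genes.

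Most of the immediate early genes and feedback inhibitors of the MAPK pathway rose between the doses. Of 20 tested members, 16 rose and 0 fell, where 12.7% of all tested genes rose, and the median log2 difference was 0.67. With only the 6 libraries of both doses in the fit, that median was 0.49. Among the transcription factors, FOS went from 3.01, 4.16 and 2.61 to 7.93, 6.64 and 7.07 CPM (1.15 ± 0.17, adjusted p = 1.04e-06), FOSL1 from 20.6 to 41.2 (1.00) and ATF3, which also belongs to the stress list described below, from 65.8, 75.2 and 71.9 to 149.8, 151 and 151 (1.09 ± 0.039, adjusted p = 7.8e-25). The ETS factor ETV5 rose by 0.93 ± 0.061. Inhibitors that the pathway is known to induce rose too. The phosphatase DUSP5 went from 66.2, 75.2 and 64.9 to 157, 148 and 155 CPM (1.156 ± 0.043), DUSP6 rose by 0.49 ± 0.036 and SPRY4 by 1.29 ± 0.12. EGR2 was under 1 CPM (0.281 and 0.705), and its 1.30 ± 0.52 did not pass the test (adjusted p = 0.0601, and 0.0449 without 10 uM replicate 1). IER2 (0.06), SPRY2 (0.069) and KLF4 (0.15) did not pass either.

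The promoter of EGR1 is shown because it is a known target of serum response factor, which binds the CArG box. The sequence is from RefSeq (GRCh38.p14), the 250 bases before the transcription start, 5′ to 3′ in the direction of the gene, with matches to the CArG box on either strand in capitals.
EGR1 (chr5:138465229-138465478, plus strand): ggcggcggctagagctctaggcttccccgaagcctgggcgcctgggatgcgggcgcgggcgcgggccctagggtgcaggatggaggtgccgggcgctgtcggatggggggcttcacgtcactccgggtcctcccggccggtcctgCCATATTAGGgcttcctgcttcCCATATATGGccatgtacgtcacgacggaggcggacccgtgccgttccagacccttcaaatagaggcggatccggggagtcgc
The 2 matches begin 105 and 83 bases before the start. This motif was searched for after the rise of EGR1 had been seen. It occurred in 1.6% of all 27305 genes with a promoter of 300 bases, and among the 19 genes of this list with a promoter in the table, EGR1 and EGR2 held it.

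Nearly all cytosolic chaperones and their helpers rose between the doses. Of 25 tested members 22 rose and 0 fell (12.7% of all tested genes rose), with a median log2 difference of 0.22. HSPA1B, one of the stress-inducible HSP70 genes, was at 6.50, 6.48 and 5.79 CPM with vehicle, 10.7, 9.67 and 12 at 5 uM and 22.4, 21.4 and 19.9 at 10 uM (0.98 ± 0.09, adjusted p = 9.16e-12). Its near-identical copy HSPA1A went from 2.57, 2.05 and 2.27 to 5.12, 4.86 and 4.24 CPM (1.05 ± 0.18, adjusted p = 1.11e-05). Reads can be split between both copies, so each value is uncertain. The small heat shock protein HSPB8 (0.89 ± 0.039), the HSP70 cochaperone BAG3 (0.62 ± 0.042) and the J protein DNAJB1 (0.52 ± 0.028, from 213, 202 and 222 to 302, 308 and 304 CPM) had the next largest differences. HSPA8, the constitutive HSP70, was at 3067, 3103 and 3035 CPM at 5 uM and 3353, 3400.1 and 3364 at 10 uM (0.14 ± 0.018, adjusted p = 5.06e-08). No 10 uM library overlapped a 5 uM library in any of these, which held for 37.5% of all tested genes. The gene of heat shock factor HSF1 itself rose by 0.16 ± 0.032, while HSF2 (0.049 ± 0.08, adjusted p = 0.72), SERPINH1 (0.061 ± 0.027, 0.0988, and 0.0468 or 0.0361 without replicate 2 of 10 or of 5 uM) and DNAJA4 (-0.07 ± 0.36, 0.919) did not pass. The CCT chaperonin, which folds actin and tubulin, rose in all 8 subunits by 0.10 to 0.21.

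Heat shock factors bind inverted repeats of GAA and TTC, and the promoters of 4 list members are shown with these repeats in capitals. The sequences are from RefSeq (GRCh38.p14), the 250 bases before the start, 5′ to 3′ in the direction of each gene, and capitals mark GAANNTTC or TTCNNGAA on either strand, overlapping matches joined.
HSPA1A (chr6:31815293-31815542, plus strand): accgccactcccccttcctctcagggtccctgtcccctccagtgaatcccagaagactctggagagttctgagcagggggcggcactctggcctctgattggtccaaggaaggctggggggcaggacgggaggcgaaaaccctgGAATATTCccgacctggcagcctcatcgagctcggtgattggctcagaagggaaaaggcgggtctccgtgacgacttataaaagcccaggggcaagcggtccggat
DNAJB1 (chr19:14518398-14518647, minus strand): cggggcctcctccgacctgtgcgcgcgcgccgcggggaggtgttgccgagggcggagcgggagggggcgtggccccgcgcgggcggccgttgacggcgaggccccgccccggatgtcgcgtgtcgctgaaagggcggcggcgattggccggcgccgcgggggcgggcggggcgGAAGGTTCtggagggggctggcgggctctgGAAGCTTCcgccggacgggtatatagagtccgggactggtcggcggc
HSPA8 (chr11:123062137-123062386, minus strand): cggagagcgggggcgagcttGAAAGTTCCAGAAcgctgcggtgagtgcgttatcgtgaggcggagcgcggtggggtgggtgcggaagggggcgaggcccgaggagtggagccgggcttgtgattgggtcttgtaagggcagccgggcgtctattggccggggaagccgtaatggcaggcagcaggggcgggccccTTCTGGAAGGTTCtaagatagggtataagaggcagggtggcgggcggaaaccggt
HSP90AA1 (chr14:102087045-102087294, minus strand): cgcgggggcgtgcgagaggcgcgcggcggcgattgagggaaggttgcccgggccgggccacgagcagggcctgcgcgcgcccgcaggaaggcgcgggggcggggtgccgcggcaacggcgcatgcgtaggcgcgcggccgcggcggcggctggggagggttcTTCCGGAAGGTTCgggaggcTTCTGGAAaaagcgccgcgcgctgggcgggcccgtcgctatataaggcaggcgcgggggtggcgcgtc
HSPA8 and HSP90AA1 carry runs in which matches overlap, HSP90AA1 with a separate match as well. DNAJB1 holds 2 separate matches and HSPA1A holds 1. Counted over the 250 bases before and 50 after the start, 18 of the 26 list genes found in the table held such a pair (69.2%), against 16.2% of all 27305 genes. A longer form of 3 such units in a row, which contains the short one, was held by 8 list genes (30.8%) and 0.608% of all genes. Because the list was drawn up from heat shock response genes, its high share says nothing about the dose step. Of the 20 members that passed and have a promoter in the table, 14 held the pair (70%). A match describes the sequence only. HSP90AA1 went from 2485 to 2856 CPM (0.20 ± 0.019, adjusted p = 3.89e-11).

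Most NRF2 targets rose between 5 and 10 uM, and for most of them this step was smaller than the one up to 5 uM. At the second step 16 of 22 tested members rose and 0 fell (1 or 2 fell in 5 other settings), where 12.7% of all genes rose, with a median of 0.19, and the median of the first step was 0.67. Both steps share the 5 uM libraries, so the difference between them was tested itself. The second step was smaller than the first for 18 members and larger for 1 (0 without 5 uM replicate 2), where 4.46% and 3.44% of all tested genes were lower and higher in that test. TXNRD1, the cytosolic thioredoxin reductase, was at 364, 374 and 353 CPM with vehicle, 1249, 1280.4 and 1226 at 5 uM and 1922, 1904 and 1932 at 10 uM. It rose by 0.62 ± 0.023 in the second step, a second minus first step difference of -1.17 (adjusted p = 5.11e-25). Both subunits of glutamate-cysteine ligase, which starts glutathione synthesis, rose: GCLC went from 133 to 212 CPM (0.67 ± 0.032) and GCLM from 209 to 303 (0.54 ± 0.03). SQSTM1, the autophagy receptor p62, went from 657, 667 and 643 to 1025, 1044 and 1064 CPM (0.67 ± 0.024), and haem oxygenase HMOX1 rose by 0.52 ± 0.028. NQO1, a quinone reductase, had 29.4, 26.3 and 27.6 CPM at 5 uM and 28.6, 28.4 and 25.3 at 10 uM, which overlap (-0.017 ± 0.074, adjusted p = 0.903), after a first step of 1.27. Of the aldo-keto reductases 4 of 9 rose (12.7% of all tested genes rose), led by AKR1C1 (0.71 ± 0.08) and AKR1C2 (0.56 ± 0.055), which have close paralogues that could share reads. AKR1B10 went from 0.5, 0.612 and 0.504 CPM to 25.1, 27.2 and 24.5 and then 34.5, 29.3 and 33.9, where the doses differed by 0.35 ± 0.082.

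Of 22 tested genes of the ATF4 integrated stress response 13 rose and 0 fell (1 fell with libraries scaled by their size alone), where 12.7% of all tested genes rose and 12.2% fell, and the median was 0.17. That median was 0.14 with only the 6 libraries of both doses, 0.13 without 10 uM replicate 1 and 0.12 without 5 uM replicate 1. Besides ATF3, the stress cytokine GDF15 went from 181, 179 and 178 to 339, 325 and 348 CPM (0.91 ± 0.031, adjusted p = 8.16e-26). The mTORC1 inhibitor DDIT4 rose by 0.60 ± 0.032, the phosphatase subunit PPP1R15A by 0.50 ± 0.033 and the pseudokinase TRIB3 by 0.48 ± 0.032. The mitochondrial folate enzyme MTHFD2 rose by 0.14 ± 0.029, whereas PHGDH (-0.0058 ± 0.026, adjusted p = 0.91) and SHMT2 (-0.034 ± 0.024, 0.337), also enzymes of serine and folate metabolism, did not pass. DDIT3, which encodes CHOP, was under 1 CPM on average at both doses.

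Of 16 tested hypoxia and glycolysis genes 9 rose between the doses and 0 fell, where 12.7% of all tested genes rose and 12.2% fell. With libraries scaled by their size alone, or without 5 uM replicate 1, 1 member fell. In the test of second minus first step 7 had a higher second step (3.44% of all genes). At the first step, which shares the 5 uM libraries, 3 members rose and 8 fell (17.3% and 18.3% of all genes). The median of the list at 10 uM against vehicle was -0.045. The glucose transporter SLC2A1 was at 171, 159 and 163 CPM with vehicle, 222, 223 and 216 at 5 uM and 444, 423 and 435 at 10 uM (0.98 ± 0.03, adjusted p = 2.43e-27). Hexokinase 2 (HK2) went from 34.4 to 29 and 39.3 CPM (0.44 ± 0.06), lactate dehydrogenase LDHA from 506 to 421 and 477 (0.18 ± 0.026), and enolase ENO1 rose by 0.27 ± 0.022. Of the targets of hypoxia signalling outside glycolysis, VEGFA rose by 0.15 ± 0.034, while BNIP3 at -0.049 ± 0.036 (adjusted p = 0.351) and NDRG1 at 0.015 ± 0.041 (0.842) did not pass.

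Most genes of liver output in the list of secreted plasma proteins fell. Of 22 tested members 20 fell and 0 rose, where 12.2% of all tested genes fell, with a median of -0.42. Transferrin (TF) was at 1472, 1499 and 1479 CPM with vehicle, 904, 880.3 and 941 at 5 uM and 651, 607 and 581 at 10 uM (-0.57 ± 0.029, adjusted p = 8.99e-20). Hemopexin (HPX), the haem carrier, went from 13.1, 15.4 and 15.1 to 8.13, 7.98 and 6.79 CPM (-0.93 ± 0.1), and the apolipoproteins APOC3 from 89 to 55.6 (-0.68 ± 0.045) and APOA1 from 444 to 343 (-0.37 ± 0.027). Albumin (ALB) was low in this line, at 2.02, 2.31 and 2.56 CPM at 5 uM and 1.15, 1.04 and 1.52 at 10 uM (-0.89 ± 0.24, adjusted p = 0.00443). APOA2 (0.02 ± 0.03, adjusted p = 0.685) and APOB (-0.13 ± 0.056, 0.091) did not pass, though APOB passed without a filter on low counts (5.28e-11) and with only the 6 libraries (0.000385). All 10 uM libraries lay below all 5 uM libraries for each of these that passed. Separation of the doses in either direction held for 37.5% of all tested genes.

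The hepatocyte transcription factors fell in 7 of 15 tested members, and 0 rose (12.2% of all tested genes fell). HNF4A, a central regulator of hepatocyte genes, went from 296, 299 and 294 to 261, 246 and 241 CPM (-0.25 ± 0.027, adjusted p = 8.49e-10) and the pioneer factor FOXA1 from 154, 153 and 149.6 to 118, 121 and 122 (-0.34 ± 0.03). FOXA2 (-0.05 ± 0.038, adjusted p = 0.381) and PROX1 (-0.023 ± 0.049, 0.788) did not pass. In hepatic metabolism 9 of 12 tested genes fell and 0 rose, against the same 12.2%. Besides SLC10A1 these included the urea cycle enzyme CPS1 (133, 127 and 142 CPM at 5 uM and 98.1, 90.2 and 83.9 at 10 uM, -0.56 ± 0.043) and the fatty acid binding protein FABP1 (-0.60 ± 0.11).

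Oncofetal genes did not move as one. Of 15 tested members 6 fell and 1 rose, where 12.7% of all tested genes rose and 12.2% fell, with a median of -0.0092. The 1 that rose, HMGA1 (0.07 ± 0.024, adjusted p = 0.0303), was not called in 7 of the 12 other settings tried (up to 0.132). AFP went from 60.3, 62.7 and 70.2 CPM with vehicle to 33.6, 31.9 and 35.3 at 5 uM and 20.4, 19.2 and 23 at 10 uM (-0.69 ± 0.07, adjusted p = 1.2e-10). The fetal growth factor IGF2 went from 155, 150.0 and 162 to 104, 98.4 and 105 CPM (-0.61 ± 0.034), the chromatin protein HMGA2 from 353 to 265 (-0.41 ± 0.025), PEG10 from 636 to 506 (-0.33 ± 0.023) and the surface proteoglycan GPC3 from 1674, 1669.6 and 1672 to 1455, 1400.4 and 1371 (-0.25 ± 0.02). The fetal RNA-binding proteins did not pass, with IGF2BP1 at 0.026 ± 0.027 (adjusted p = 0.555), LIN28B at 0.044 ± 0.046 (0.547), nor did the stem cell factor SALL4 (0.00082 ± 0.034, 0.991).

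MDK, the named target of the inhibitor, fell slightly. It was at 439, 432 and 417 CPM with vehicle, 349, 358 and 349 at 5 uM and 324, 315 and 317 at 10 uM. The dose difference was -0.14 ± 0.026 (adjusted p = 2.56e-05), and the doses did not overlap, as for 37.5% of all tested genes. MDK (ENSG00000110492.17) lies on chromosome 11, 46380756 to 46383837 of GRCh38, on the plus strand. The first step was -0.29 ± 0.025, and the test of second minus first gave 0.14 ± 0.044 (adjusted p = 0.0314), a call lost in 7 of the 15 other settings tried, with an adjusted p of up to 0.165. Its relative PTN went from 77.9, 80.4 and 76.5 to 70.3, 68.3 and 73.4 CPM (-0.15 ± 0.04). Among the receptors the syndecans went both ways. SDC2 went from 427, 429.6 and 429 to 338, 339.9 and 332 CPM (-0.35 ± 0.026) and SDC4 from 100.5, 109 and 108 to 134, 133 and 129 (0.32 ± 0.037), SDC1 fell by 0.16 ± 0.033 on the log2 scale, and SDC3 did not pass (0.053 ± 0.056, adjusted p = 0.559). Integrin beta 1 (ITGB1) changed by -0.19 ± 0.027 and nucleolin (NCL), a reported binding partner, by 0.14 ± 0.02. LRP1 was -0.25 ± 0.088 (adjusted p = 0.0328), and that call was lost with DESeq2 (adjusted p = 0.264), without 10 uM replicate 2 (0.102) or replicate 3 (0.102) and without 5 uM replicate 3 (-0.097, 0.477). In all 3 of 15 tested members rose and 6 fell, where 12.7% of all tested genes rose and 12.2% fell, and 5 rose without 5 uM replicate 3.

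Of 17 tested targets of beta-catenin 8 fell, where 12.2% of all tested genes fell. The number that rose was 2, near the 12.7% of all genes. CTNNB1, which encodes beta-catenin, was at 782, 791 and 777 CPM at 5 uM and 759.9, 767 and 760.2 at 10 uM (-0.039 ± 0.021, adjusted p = 0.191), and among the settings tried passed only when libraries were scaled by their size alone (-0.055, 0.0493). The common readout of the pathway, AXIN2, did not pass, at 169, 176 and 171 CPM at 5 uM and 178, 171 and 176 at 10 uM (0.027 ± 0.029, adjusted p = 0.565). Secreted antagonists were lower: NOTUM went from 13.1, 12.2 and 10.2 to 8.63, 8.82 and 8.48 CPM (-0.45 ± 0.099, adjusted p = 0.000399) and DKK1 from 477 to 396 (-0.27 ± 0.025). Cyclin D1 (CCND1) changed by -0.12 ± 0.024. Both members that rose are transcription factors with many other inputs, MYC (64.2, 64.1 and 57.4 CPM at 5 uM and 94, 95.2 and 95 at 10 uM, 0.61 ± 0.042) and SOX4 (0.25 ± 0.039).

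Most genes of the mitosis and spindle list fell by small amounts. In the mitosis and spindle list 23 of 29 genes fell and 0 rose (12.2% of all genes fell), with a median of -0.15, and in the DNA replication list 12 of 29 fell and 0 rose, with a median of -0.10. The DNA replication median was -0.074 without 5 uM replicate 1. Topoisomerase TOP2A was at 706, 708 and 716 CPM with vehicle, 527, 525 and 533 at 5 uM and 407, 411 and 394 at 10 uM (-0.39 ± 0.023, adjusted p = 1.6e-17), and the kinesin KIF20A at 209.7 and 159 with the doses (-0.40 ± 0.031). The replication clamp PCNA (-0.0059 ± 0.025, adjusted p = 0.902) and ribonucleotide reductase RRM2 (0.024 ± 0.025, 0.556) did not pass. Targets of p53 rose in 18 of 19 members in the first dose step (17.3% of all genes did), and in the second 6 rose and 4 fell (2 fell without 10 uM replicate 3), where 12.7% of all tested genes rose and 12.2% fell. The second step was smaller than the first for 16 of the 19 (4.46% of all genes). CDKN1A, the inhibitor p21, went from 151, 149 and 139 to 215, 226 and 222 and 250.2, 263 and 273 CPM (0.25 ± 0.031), and MDM2, the ligase that restrains p53, from 189.9 to 359 and 386 (0.10 ± 0.027). DDB2, a DNA damage sensor, rose from 102 to 125 and fell to 111 (-0.17 ± 0.036).

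Of 19 tested endoplasmic reticulum chaperones 9 fell and 0 rose, where 12.7% of all tested genes rose and 12.2% fell, with a median of -0.10. GRP94 (HSP90B1) was at 1157, 1159 and 1151 CPM with vehicle, 848, 843 and 851 at 5 uM and 739.7, 718 and 717 at 10 uM (-0.22 ± 0.022, adjusted p = 3.88e-11). The disulfide isomerase PDIA4 changed by -0.26 ± 0.024, calreticulin (CALR) by -0.21 ± 0.022 and BiP (HSPA5) by -0.10 ± 0.02. The shares of all genes that apply to the next lists are the same. In cholesterol synthesis 12 of 23 genes fell and 0 rose, among them HMGCS1 (-0.23 ± 0.029) and MVK (-0.27 ± 0.04). In fatty acid synthesis 5 of 12 fell and 1 rose, the latter being ME1 (0.11 ± 0.026), which also belongs to the NRF2 list. Proteasome subunits rose in 14 of 28 with a median of 0.069. That count was 8 with library size alone, 7 without a filter on low counts, 5 without 10 uM replicate 1 and 7 without 5 uM replicate 1 or replicate 3. In autophagy and lysosome 8 of 16 rose and 1 fell, the latter being the regulator TFEB (-0.55 ± 0.15). Of the ribosomal proteins 19 of 23 did not pass, with a median of -0.013.

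In the matrix list 3 of 16 tested members rose and 6 fell, where 12.7% of all tested genes rose and 12.2% fell, so that the number that rose is near the share of all genes. Fibronectin (FN1) went from 12227, 12679 and 13934 to 17129, 16978 and 17272 CPM (0.40 ± 0.041) and collagen I (COL1A1) from 38.7, 46.3 and 40.7 to 24.2, 28.2 and 27.8 (-0.65 ± 0.064). Among chemokines and cytokines 6 of 10 rose and 0 fell, against the same shares. The macrophage growth factor CSF1 was at 39.6, 41.7 and 40.00 CPM with vehicle, 76.7, 75.6 and 76 at 5 uM and 96.2, 95.3 and 96.2 at 10 uM (0.33 ± 0.043, adjusted p = 3.43e-08), and IL32 rose by 0.49 ± 0.045. The neutrophil chemoattractant CXCL8 was near the detection limit at 0.197, 0.351 and 0.197 CPM at 5 uM and 1.15, 0.843 and 1.30 at 10 uM (2.12 ± 0.5). Of 14 tested interferon-stimulated genes 2 rose (1 without 10 uM replicate 3) and 0 fell (1 without 5 uM replicate 1), which for the higher ones is near the 12.7% of all genes. ISG15 was 1 of them (22, 24.3 and 19.99 to 31.7, 31 and 32.7 CPM, 0.52 ± 0.073).

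Of 11 tested targets of FOXO factors, which insulin signalling holds down, 3 rose and 4 fell, where 12.7% of all tested genes rose and 12.2% fell. The zinc finger factor KLF6 went from 118, 126 and 123 to 213, 201 and 208 CPM (0.76 ± 0.032, adjusted p = 1.17e-22) and the receptor ERBB3 from 103, 102 and 103 to 77.9, 69.8 and 70.9 (-0.49 ± 0.037, adjusted p = 3.1e-14). In the YAP/TEAD list 3 of 12 rose and 3 fell, against the same shares. ANKRD1, a common readout of YAP, went from 291, 303 and 283 to 446, 465 and 482 CPM (0.67 ± 0.029, adjusted p = 4.29e-22), with no overlap (as for 37.5% of all tested genes). YAP1 itself changed by -0.14 ± 0.027. Of 8 tested genes of MHC class I presentation 1 rose (2 without 5 uM replicate 1) and 1 fell, near the 12.7% and 12.2% of all tested genes. The light chain B2M rose by 0.27 ± 0.043 and the peptide trimming enzyme ERAP1 changed by -0.34 ± 0.067. Of 9 tested tubulins 1 rose, near the 12.7% of all genes, and 0 fell. With any 1 of the 10 uM libraries left out, 2 rose. TUBB2A, the 1 that rose, went from 35.9, 32.6 and 33.9 to 50.3, 54.1 and 53.3 CPM (0.62 ± 0.058).

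CSF1R, the receptor of CSF1 and otherwise a marker of macrophages, rose with dose. It was at 10.7, 10.4 and 12.3 CPM with vehicle, 31.5, 34.3 and 30.1 at 5 uM and 67.7, 66 and 62.5 at 10 uM (1.03 ± 0.058, adjusted p = 3.31e-18), with no overlap between groups. Between 5 and 10 uM, 37.5% of all tested genes had no overlap. CD68, C1QA and C1QB are among the genes with 0 counts in all tumour line libraries and are left out. The other 13 macrophage and leukocyte markers summed to 18.1 to 21.8 CPM with vehicle, 40.8 to 45.1 at 5 uM and 71.9 to 76.9 at 10 uM. Without CSF1R the sums were 7.45 to 9.56, 10.7 to 11.1 and 9.11 to 9.50 CPM. At 5 uM 8 and at 10 uM 8 of the 13 were under 1 CPM, and the leukocyte marker PTPRC had 2 counts in the 6 libraries together. Fibroblast markers summed to 81.6 to 89.4 CPM at 5 uM and 54.7 to 57.5 at 10 uM, with COL1A1 and PDGFRB the members above 10 CPM, and endothelial markers, nearly all from PECAM1, to 107 to 114 and 94.5 to 96.9.

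**Figure D2:**
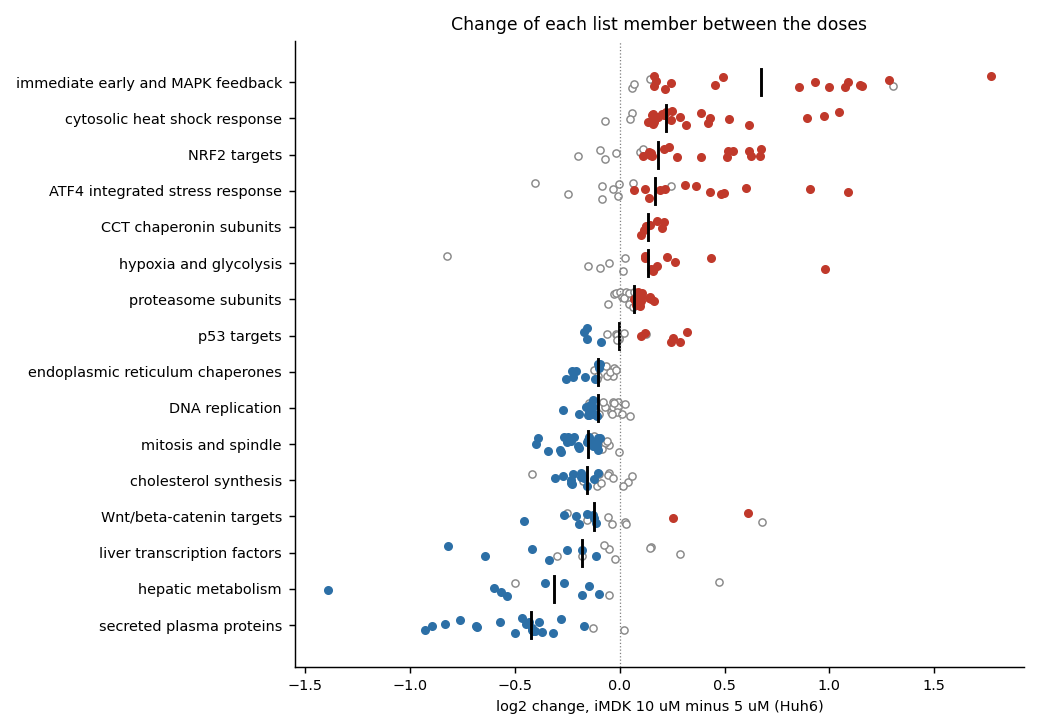
Log2 difference between 10 and 5 uM iMDK in Huh6 for each tested member of 16 gene lists. Filled points passed the test (adjusted p below 0.05), red higher and blue lower, open points did not, and the black bar is the median of the list. Most immediate early, heat shock and NRF2 genes lie to the right of 0 and most secreted plasma proteins to the left.

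The 2 dose steps, from vehicle to 5 uM and from 5 to 10 uM, were compared gene by gene. The second step was higher than the first for 517 genes (3.44%) and lower for 670 (4.46%). With libraries scaled by their size alone the split was 384 against 819, 31.9% higher in place of 43.6%. Some genes were lower at 5 uM than at either other dose. SPRY4 was at 6.85, 5.41 and 5.79 CPM with vehicle, 4.99, 5.06 and 4.58 at 5 uM and 11.7, 11.3 and 12.7 at 10 uM, and its second minus first step was 1.59 ± 0.22 on the log2 scale (adjusted p = 5.93e-07), though its first step alone did not pass (-0.30, 0.0617). ETV5, another feedback gene of the MAPK pathway, was at 34.1, 31.7 and 34.2, 25.2, 26.9 and 23.1 and 49.1, 47.6 and 46.7 CPM in the same order (1.34 ± 0.11, adjusted p = 1.93e-12), and DUSP6 at 96.2, 82.3 and 116 on average (0.72 ± 0.063). The zinc-binding metallothionein MT2A was at 18, 21.1 and 19.4, 11.9, 12.7 and 12.4 and 21.4, 18.3 and 17.7 CPM (1.29 ± 0.13), where vehicle and 10 uM overlap. Its relative MT1F stayed low after the first step, at 17.8, 20.4 and 18.6, 5.78, 4.56 and 5.96 and 5.47, 5.45 and 3.86 CPM (1.66 ± 0.2). Metallothioneins share sequence, so their reads could be split. CYP1A1, the target of the aryl hydrocarbon receptor, went from 65.5 CPM with vehicle to 21.4 at 5 uM and 18.5 at 10 uM (1.40 ± 0.12), and the hyaluronidase CEMIP from 8.01 to 4.94 and 8.13 (1.42 ± 0.24).

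For other genes the first step was larger than the second on the log2 scale. AKR1B10 had a first step of 5.55 and a second of 0.35, the most negative difference among the genes named by rule (-5.20 ± 0.22, adjusted p = 7.48e-22). The neuronal microtubule protein MAP2 went from 0.5, 0.561 and 0.856 CPM to 27.3, 28.7 and 27 and 60.1, 60.02 and 62.6, and still rose by 1.14 ± 0.067 in the second step (-4.28 ± 0.2 for the difference). The synaptic protein gene CPLX2 did not pass in the second step, with 16.5, 14.5 and 14.2 CPM, 84.6, 91.3 and 84.9 and 83.6, 81.9 and 86.8 (-0.048 ± 0.044 in the second step, adjusted p = 0.486, and -2.57 ± 0.084 for the difference). The NRF2 target OSGIN1 went from 9.33 to 60.1 and 92.7 CPM (-2.06 ± 0.1). The noncoding RNA LUCAT1 (-2.52), GADL1 (-2.52), TMC2 (-2.21), AKR1C1 (-2.46) and AKR1C2 (-2.19) had the same order of steps.

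**Figure D3:**
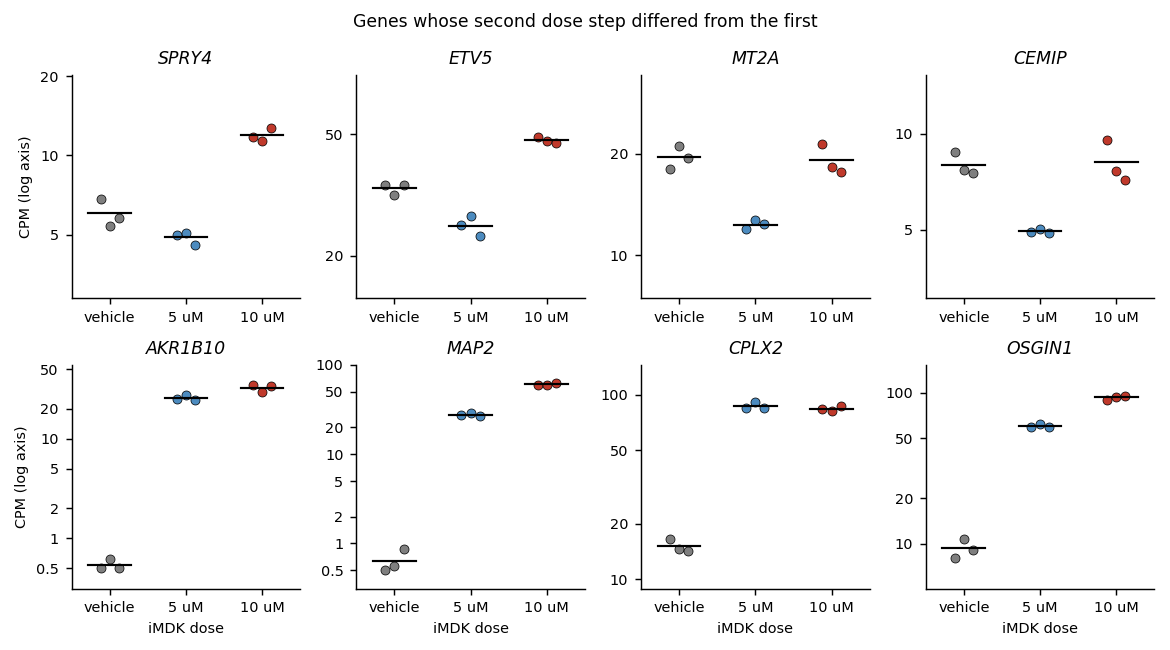
Level of 8 genes in each Huh6 library, in CPM on a log axis, with vehicle, 5 uM and 10 uM iMDK. Points are single libraries and bars are means of 3. Mean levels of SPRY4, ETV5, MT2A and CEMIP are lowest at 5 uM, and AKR1B10, MAP2, CPLX2 and OSGIN1 have a larger first than second step on this log axis.

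HepG2 gave a different dose step for part of the genes. The same step in HepG2 changed 1078 genes upwards (6.98%) and 1180 downwards (7.64%) of 15444 tested. The test of the difference between the lines, which uses libraries that the 2 steps do not share, found 681 genes higher in Huh6 (4.41%) and 735 lower (4.76%). Because several of the largest differences were of genes near 0 in HepG2, the genes that lead here have a mean of at least 4 CPM in both lines, a limit set after the values were seen. EGR1 rose by 0.67 in HepG2, from 69.6 to 111 CPM, and the difference of the steps was 1.08 ± 0.082 (adjusted p = 1.45e-13). SPRY4 did not pass in HepG2 (0.074), with a difference of 1.19 ± 0.099 (adjusted p = 2.62e-12), and neither did ETV5 (-0.04, difference 0.96 ± 0.069). Over the immediate early list 10 of 20 members had a larger step in Huh6 and 1 a smaller one, which was KLF4, with -0.78 ± 0.12, where 4.41% and 4.76% of all genes were higher and lower in that test. The actin-binding protein TAGLN (1.09 ± 0.075), MAFF (1.06 ± 0.1), the kinase SGK1 (0.96 ± 0.14) and the transporter SLC6A11 (0.94 ± 0.12) also had higher steps in Huh6. SLC2A1 was at 0.049 in HepG2, which did not pass (difference 0.91 ± 0.037, adjusted p = 8.6e-23).

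Among the endoplasmic reticulum chaperones 15 of 19 had a lower step in Huh6 and 0 a higher one (4.76% and 4.41% of all genes), and in HepG2 9 of them rose (6.98% of all genes) and 1 fell. HSPA5 rose by 0.26 in HepG2 and the difference was -0.37 ± 0.034 (adjusted p = 2.73e-11). All 13 tested interferon-stimulated genes rose in HepG2 (6.98% of all genes did), with a median of 0.79. Of these 13, 6 passed the test of the difference as lower in Huh6 (4.76% of all genes), while 7 did not pass. Several of these genes are low in Huh6, such as IFI6 (1.27 CPM at 5 uM and 1.14 at 10 uM). EPSTI1 (-1.41 ± 0.13), PARP14 (-1.08 ± 0.06) and PARP10 (-1.02 ± 0.12), outside the list but known to respond to interferon, were among the 8 lowest, with log2 steps of -0.27, -0.44 and -0.62 in Huh6 and of 1.12, 0.63 and 0.38 in HepG2. The secreted plasma proteins fell in HepG2 too, with 13 of 22 lower and 1 higher (7.64% and 6.98% of all genes) and a median of -0.15. In the test of the difference 16 of 22 had lower steps in Huh6 and 0 had higher ones (4.76% and 4.41% of all genes). TF differed by -0.40 ± 0.053 and FGG by -0.42 ± 0.054. In the NRF2 list 6 were higher and 4 lower of 22 in the same test (4.41% and 4.76% of all genes).

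**Figure D4:**
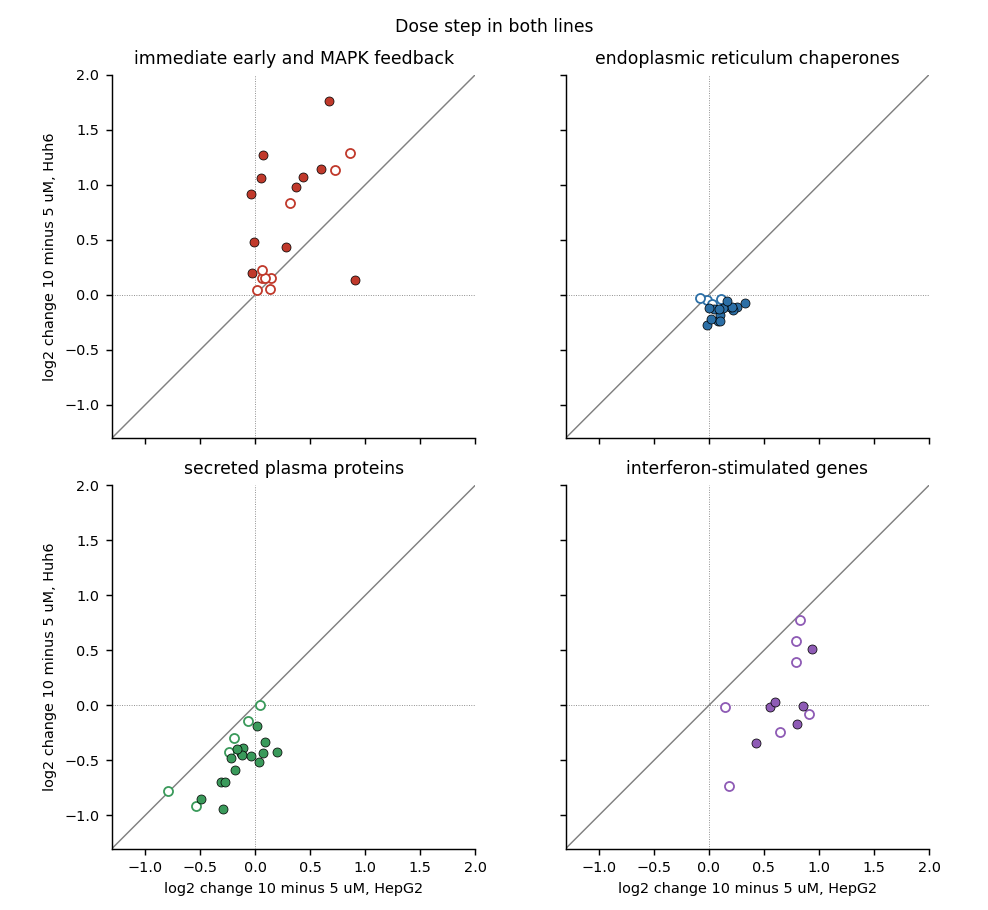
Log2 difference between 10 and 5 uM iMDK in HepG2 (x axis) and Huh6 (y axis, the HepG2 difference plus the tested difference of the lines) for the members of 4 gene lists. Filled points passed the test of the difference between lines, open points did not, and the grey diagonal marks equal steps. Immediate early genes lie mostly above the diagonal, and most members of the other 3 lists below it.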

How the data were processed

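Poly(A) RNA of Huh6 cells was made into strand-marking libraries and sequenced, per the labels' protocols. The authors deposited whole-number read counts per gene, made with STAR 2.7.3a, SAMtools 1.16.1 and featureCounts on GRCh38, per the submitters' processing notes. Neither the annotation release nor the strand setting of the counting is stated in the labels or file headers. All 18 Huh6 libraries (6 groups of 3, PKF118-310 included) were fitted with edgeR 4.0.16 in R 4.3.3 (quasi-likelihood F test, filterByExpr, TMM scaling), and adjusted p-values are Benjamini-Hochberg over all genes tested, threshold 0.05, two-sided. The lines were compared in a fit of 12 libraries. CPM are TMM-scaled, ± is the SE of the log2 difference, and n = 3 libraries a dose. Alternatives included DESeq2 1.42.0, other scalings, no filter, a replicate block and leaving out each library.

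Members and lists were chosen with earlier results of these data known. Named genes are the 12 highest and 12 lowest in the dose step (passed, mean log2 CPM of at least 2, doses not overlapping), the 8 highest and 8 lowest of the other tests, up to 5 members a list, and a set always given. Outside that rule, APOA2, APOB, APOC3, BNIP3, CCND1, DNAJA4, DUSP6, EGR2, FGG, FOSL1, FOXA2, HMGA1, HMOX1, HSF1, HSF2, HSP90AA1, HSPA5, IER2, IFI6, IGF2BP1, KLF4, LIN28B, MDM2, ME1, MTHFD2, NCL, NDRG1, NQO1, PCNA, PHGDH, PROX1, PTN, RRM2, SALL4, SDC1, SDC3, SERPINH1, SHMT2, SPRY2, TF and VEGFA were named after their values were seen. A few genes that the rule names are not reported here. Gene positions are from GENCODE 29 and promoters from RefSeq. Replicates were checked for duplication, and their counts differed by more than sampling noise (chi-square per degree of freedom 1.79 to 2.76). In data simulated for the dose step (14725 genes), 68.4% of changes of 0.5 and 81.2% of changes of 1 on the log2 scale were recovered.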

Additional observations from a re-analysis of the deposited data

Results flagged for a closer look

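The dose step was tested for a difference between Huh6 and HepG2, and 681 genes were higher and 735 lower in Huh6 at an adjusted p below 0.05 (edgeR, Benjamini-Hochberg). Among genes of at least 4 CPM in both lines, the largest positive log2 differences included SPRY4 (1.19), TAGLN (1.09), EGR1 (1.08), MAFF (1.06), SGK1 (0.96), ETV5 (0.96) and SLC6A11 (0.94). The most negative were DYSF (-1.80), TUSC3 (-1.47), EPSTI1 (-1.41), HSPA12B (-1.20), KYNU (-1.13), PARP14 (-1.08), MAP1A (-1.05) and PARP10 (-1.02). The call for DYSF was lost with DESeq2 (adjusted p = 0.16) and without HepG2 10 uM replicate 1 (-0.57, 0.069). HepG2 and Huh6 are 1 line each, so these values compare the lines and not kinds of tumour.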

How the results depend on the processing

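The 6 counts of genes called kept within 1.5 times of their values in all 92 alternative values. No named gene changed sign where either of the compared values passed the threshold. For the dose step DESeq2 called 1580 higher and 1587 lower, for second minus first step 416 higher and 535 lower, and for Huh6 minus HepG2 617 higher and 564 lower. With one library left out at a time the dose step gave 1576 to 1692 higher and 1550 to 1636 lower, second minus first step 349 to 518 higher and 478 to 635 lower, and Huh6 minus HepG2 573 to 672 higher and 595 to 724 lower. With libraries scaled by their size alone, the dose step gave 1632 higher and 2076 lower (44.0% higher against 50.9%). Without a filter on low counts Huh6 minus HepG2 gave 878 higher and 578 lower (60.3% higher against 48.1%), and with genes of at least 4 CPM in both lines, a limit added after seeing the data, 635 higher and 639 lower. Of 2661 alternative values of named genes in the dose step, 81 lost and 7 gained a call. Of 1194 alternative counts of list members, 76 moved by over 1.5 times, and of 444 list medians 31 moved by more than the spread between libraries. The cause was not tested.

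With the replicate block, the dose step gave 1874 higher and 1827 lower, second minus first step 495 higher and 642 lower, and Huh6 minus HepG2 779 higher and 794 lower. The groups share the numbers 1 to 3, but deviations of same-numbered 5 and 10 uM libraries from their group means were not correlated (-0.018, 0.011 and -0.0041). No pairing by number was seen in these values. They cannot settle whether same-numbered libraries share a culture or preparation, which the labels do not state.

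Depth limits genes under about 1 CPM, where 3 counts are 0.148 to 0.163 CPM. The 3 libraries a dose measure the spread between libraries only.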
